A study of Homo sapiens with 4 samples.

Results

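A549 is a human lung adenocarcinoma cell line, labelled lung epithelial by the submitters, and its transcriptome was compared here between spheroid culture and adherent culture across all genes. This comparison uses 2 of the 4 libraries of the study: 1 of A549 cells grown adherent, attached to plastic as a layer, and 1 of A549 cells grown as spheroids, floating clusters of cells. The labels give no treatment, genotype or time for either library, and both come from the same line. The remaining 2 libraries, of the lung adenocarcinoma line H1993 in the same cultures, entered only the filter on low counts and the scaling factors. With 1 library on each side there is no replicate check, so differences are given by size with a 95% counting interval and without a test, and the interval covers counting error alone. The study asked about triacylglycerol synthesis in spheroids, which the submitters take as a culture of cancer stem cells, and the account below covers the other gene classes.

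A549 cells keep features of secretory epithelium. Secreted and membrane proteins are made at the endoplasmic reticulum (ER), folded there by chaperones, carried to the Golgi apparatus in vesicles coated by the COPII complex and decorated with sugars on the way. Mucins are the large, heavily O-glycosylated proteins of mucus, and airway, stomach and intestine each use their own set. In a layer on plastic every cell has oxygen, medium and a stiff surface to pull on, whereas cells inside a cluster have more neighbours and a diffusion-limited supply.

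The adherent library held 15657295 exonic reads and the spheroid library 17681746, so 3 reads correspond to 0.190 and 0.180 CPM (counts per 1000000 exonic reads, scaled by trimmed mean of M values). Intronic reads made up 10.1% and 8.43% of gene reads, and mitochondrial genes 6.59% and 6.68% of exonic reads. CDKN2A and CDKN2B, 2 neighbouring cell cycle inhibitors, had 0 reads in both A549 libraries. Of the H1993 libraries, the one labelled adherent resembled adherent A549 cells more than H1993 spheroids (Pearson correlation across 16757 genes of 0.969 and 0.877), which goes against its line label, although CDKN2A and CDKN2B had 75 and 89 reads in it, against 308 and 371 in H1993 spheroids. The counts of higher and lower genes were therefore also made with the A549 libraries alone. All 10 markers of simple epithelium were measured, summing to 11314 CPM in adherent cells and 5986 CPM in spheroids. The 6 markers of alveolar type 2 cells summed to 2.15 and 2.65 CPM, and the lung transcription factor NKX2-1 had 0 reads in both libraries. Epithelial markers were thus present and the defining alveolar ones at or near 0. Of 15 blood cell markers, 7 had no reads in either library, PTPRC among them, and the list summed to 22.8 and 96.0 CPM, mostly from CD68, a lysosomal protein, of whose reads only 8.51% were unique to the gene. The 10 endothelial markers summed to 33.0 and 92.2 CPM, mostly from EGFL7 (466 and 1396 reads), with TIE1 and CLDN5 at 0 reads in both. The 10 fibroblast markers summed to 19.2 and 40.4 CPM. In bulk RNA, fewer cells of a kind and less RNA per cell cannot be told apart.

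Of 16757 genes kept, 2136 were at least 2-fold higher in spheroids with an interval that excluded no change, which is 12.7% of them. Another 1715 genes, or 10.2%, were lower by the same rule, and both directions together made up 23.0%. Paired values below give adherent cells first and spheroids second. A gene is called higher or lower below only in this sense. Close to no change lay 49.8% of genes, with a log2 fold of spheroid over adherent under 0.5 in size. At least 4-fold differences were seen for 767 higher and 616 lower genes, and 16-fold differences for 125 and 144. For lists of genes the members with at least 10 reads in 1 A549 library are called measured. A member near 0 in 1 culture is therefore measured only through its reads in the other. Such members tend to be called, so shares of measured members can overstate a difference of the whole list. Over all 15734 genes measured in that way the median log2 fold was 0.00, with 13.4% higher and 10.7% lower, and each list is read beside these shares. The 15 strongest on the lower side, among genes outside a reference list of cell division genes, were themselves mostly cell division genes such as DIAPH3, MYBL2, PKMYT1 and BIRC5. All 32 reference genes of S phase and mitosis were lower, at a median of -4.74, and members of other lists that also act in S phase are named as such below.

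**Figure D1:**
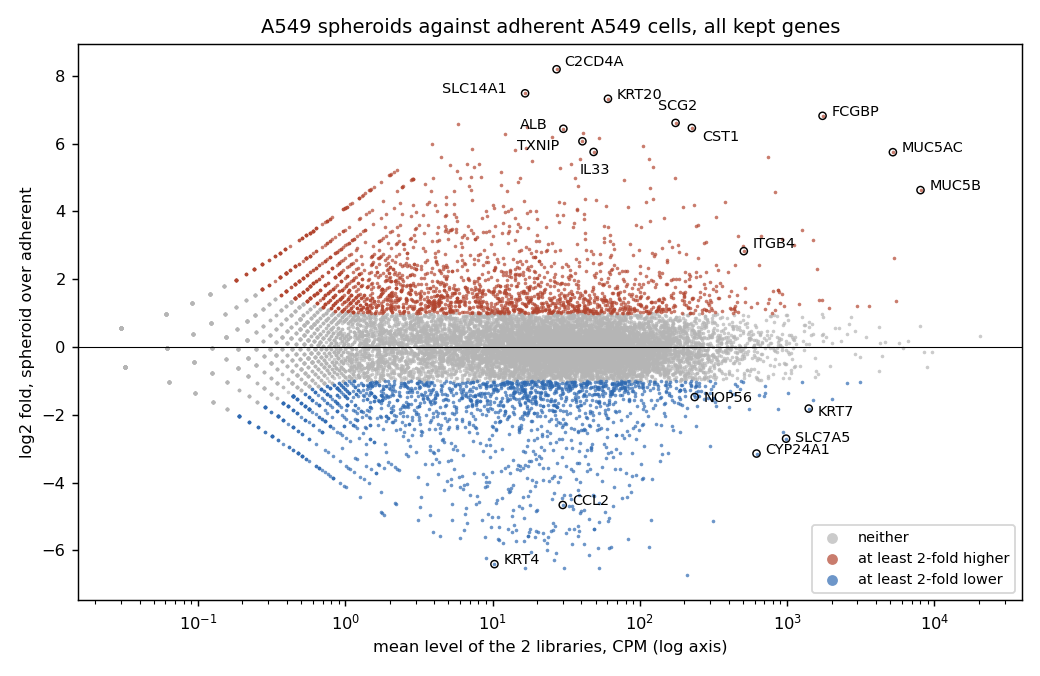
Mean level of each kept gene in CPM (horizontal log axis) against its log2 fold of spheroid over adherent (vertical axis). Each point is 1 gene, coloured by whether it was at least 2-fold higher or lower with a counting interval excluding no change. C2CD4A, SLC14A1 and KRT20 lie at the top from low adherent levels, MUC5AC and MUC5B combine a large fold with a high level, and KRT4 and CCL2 lie at the bottom.

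The gene with the largest fold among those with at least 500 reads was C2CD4A, a nuclear protein gene responsive to inflammatory cytokines (chromosome 15, 62066977 to 62070917, hg38). It had 1 adherent and 902 spheroid reads, 0.0633 and 54.3 CPM, for a log2 fold of 8.19 (7.26 to 15.05), where the brackets give the 95% counting interval here and below. SLC14A1, the urea transporter of red cells and kidney, had 1 and 551 reads, a log2 fold of 7.48 (6.55 to 14.34). Both ratios rest on a single adherent read, so the interval and not the value carries the size. Further down the order stood NOS1, the neuronal nitric oxide synthase, with 14 and 1341 reads (log2 fold 6.32, 5.76 to 7.38), and SUCNR1, the succinate receptor, with 21 and 1736 reads (log2 fold 6.17, 5.68 to 6.99). SPTSSB, a subunit that tunes the chain length made by serine palmitoyltransferase, had 9 and 837 reads (log2 fold 6.19, 5.53 to 7.60). SPNS2, the exporter of sphingosine-1-phosphate, stood at 0.443 CPM in adherent cells and 33.0 CPM in spheroids (log2 fold 5.87, 5.17 to 7.54). These genes come from unrelated families and had low adherent counts, from 1 to 21 reads, which a ranking by fold favours. PMCH, the precursor of melanin-concentrating hormone, had no adherent reads and 74 spheroid reads, so it was at least 23.4-fold higher. Among genes with 0 reads in spheroids, ANKRD2, a muscle ankyrin repeat protein, had 56 reads in adherent cells and was at least 19.6-fold lower, and RDM1, a recombination protein, had 40 and was at least 14.03-fold lower. The readthrough genes BORCS7-ASMT (0 and 71 reads) and SENP3-EIF4A1 (58 and 0) share exons with their neighbours and are uncertain.

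Measured mucus genes were higher nearly as a class. Of 40 members of the mucus and trefoil list, 14 had under 10 reads in both libraries. Of the 26 measured, 23 were higher and 1 was lower, with a median log2 fold of 2.82, or 2.67 with members at 0 reads set at their bound. Their summed level was 1323 CPM in adherent cells and 32366 CPM in spheroids, and mucin genes took 0.0898% of exonic reads in the first and 2.44% in the second. Most of that sum came from the gel-forming mucins of airway and stomach. MUC5B (chromosome 11, 1223066 to 1262172) stood at 625 CPM in adherent cells and 15446 CPM in spheroids, and MUC5AC (chromosome 11, 1157953 to 1201138) at 191 and 10242 CPM. Per length, in the deposited TPM, MUC5B reached 2661 and MUC5AC 1881 in spheroids. FCGBP, a mucin-like protein that binds to and crosslinks the mucus gel, stood at 30.4 and 3444 CPM (log2 fold 6.82, 6.70 to 6.96), or 851 TPM in spheroids. The set did not stop at airway mucins. MUC2, the intestinal gel mucin, had 31 and 352 reads, and MUC6, the mucin of gastric glands, 2 and 42 reads. MUC13 and MUC16, membrane-bound mucins, had 389 and 1448 reads and 121 and 560 reads.

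Genes that build and protect mucus followed the same direction. AGR2, the ER disulfide isomerase that mucin folding depends on, stood at 301 CPM in adherent cells and 2685 CPM in spheroids (log2 fold 3.16, 3.11 to 3.20). TFF1, a trefoil peptide of gastric mucus, stood at 0.696 and 36.5 CPM (log2 fold 5.48, 4.86 to 6.72). Its relatives TFF2 and TFF3 had 0 reads in the adherent and 23 and 45 in the spheroid library. REG4, a lectin of intestinal secretory cells, had 0 reads in the adherent and 192 in the spheroid library, at least 60.8-fold more. TSPAN8, a tetraspanin of gut epithelium, stood at 0.823 and 30.01 CPM (log2 fold 4.99, 4.40 to 6.11). SPDEF, the transcription factor of goblet cell differentiation, had 262 and 1540 reads (log2 fold 2.47, 2.29 to 2.68), and its partner in secretory differentiation FOXA3 had 67 and 182 reads. The exception was LCN2, an iron-siderophore binding protein of inflamed epithelium, which was lower, at 44.9 and 12.4 CPM (log2 fold -1.85, -2.09 to -1.63). MUC3A was not called, with 162 and 85 reads. Club cell secretoglobins were not part of the pattern, since SCGB1A1 and SCGB3A1 had 0 reads in both libraries, as did the goblet cell channel regulator CLCA1.

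Enzymes of O-glycan and terminal glycosylation differed one by one rather than as a class. Of 35 measured, 10 were higher and 2 lower, at a median of 0.32, and the summed level of the list was nearly equal at 2335 and 2482 CPM. CHST6, a sulfotransferase of N-acetylglucosamine, stood at 1.46 CPM in adherent cells and 66.3 CPM in spheroids (log2 fold 5.396, 4.92 to 6.17). GALNT5, which starts O-glycan chains, stood at 13.7 and 92.7 CPM (log2 fold 2.75, 2.55 to 2.97). B3GNT3, which extends them, had 182 and 671 reads (log2 fold 1.798, 1.57 to 2.05), and the sialyltransferase ST6GAL1 had 146 and 541 reads (log2 fold 1.803, 1.55 to 2.09). GALNT14, another chain-starting enzyme, was lower (407 and 187 reads, log2 fold -1.19, -1.45 to -0.94), and so was the branching enzyme GCNT1 (55 and 26 reads, log2 fold -1.10, -1.89 to -0.46). The most abundant member, B4GALT1, a galactosyltransferase, was not called at 490.2 and 402 CPM (log2 fold -0.29, -0.33 to -0.24).

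Genes of the route from the ER to the cell surface leaned higher in small steps. Of 50 measured genes of coat complexes, translocation and cargo receptors, 47 had a log2 fold above 0, 16 were called higher and none lower, with a median of 0.68. ER folding and unfolded protein response genes had 13 of 32 higher and none lower, with a median of 0.75. KDELR3, a receptor that returns ER proteins from the Golgi, stood at 12.4 CPM in adherent cells and 83.3 CPM in spheroids (log2 fold 2.74, 2.53 to 2.97). SSR4, a subunit of the complex around the ER translocation channel, stood at 102 and 298 CPM (log2 fold 1.55, 1.47 to 1.64). RAB27B, a small GTPase of granule exocytosis, stood at 149 and 551 CPM (log2 fold 1.88, 1.82 to 1.95), and CREB3L1, a membrane-bound transcription factor of secretory cells, at 1.90 and 23.9 CPM (log2 fold 3.57, 3.12 to 4.24). TRAM1, a translocation-associated membrane protein, had the lowest value of its list (log2 fold -0.89, -0.93 to -0.85) and was not called.

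Within the ER folding list some sensors and regulators had larger folds than the abundant chaperones, but the list did not divide by function throughout. XBP1, the transcription factor activated by the sensor kinase ERN1, stood at 66.7 CPM in adherent cells and 261 CPM in spheroids (log2 fold 1.96, 1.87 to 2.07), and ERN1 itself at 24.6 and 89.5 CPM (log2 fold 1.86, 1.70 to 2.03). DNAJB9, a co-chaperone that restrains ERN1, stood at 23.8 and 156 CPM (log2 fold 2.71, 2.56 to 2.87). HERPUD1, a component of ER-associated degradation, stood at 46.6 and 158 CPM (log2 fold 1.76, 1.64 to 1.88). EIF2AK3, the sensor kinase that slows translation, was also higher (374 and 840 reads, log2 fold 1.09, 0.92 to 1.27). The chaperones HSPA5, HSP90B1 and P4HB were not called at 0.74, 0.58 and 0.93, and CALR lay at -0.10. The co-chaperone DNAJC3 was higher at 1.44, whereas SEL1L, OS9 and DERL2 of ER-associated degradation were not called at 0.71, 0.72 and 0.23. ATF4 acts downstream of EIF2AK3, and its list of targets was split, with 3 of 25 higher, 3 lower and a median of -0.19. TRIB3, a pseudokinase of that response, was among the higher at 69.6 and 428 CPM (log2 fold 2.62, 2.53 to 2.71).

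Promoter sequences were read for ER folding, secretory transport and hypoxia genes because each group is known to be driven through short elements near the start site, and 4 are shown as examples. Each window runs from 250 bases before to 50 bases after the start of the gene (RefSeq, GRCh38.p14) and is printed 5′ to 3′ on the strand of the gene. Capitals mark the match of 1 element found on either strand. HERPUD1 (chr16:56931892-56932191, plus strand) holds the ER stress element II, ATTGG and CCACG with 1 base between them. XBP1 (chr22:28800520-28800819, minus strand) holds the ER stress element, CCAAT and CCACG with 9 bases between them. KDELR3 (chr22:38467846-38468145, plus strand) holds the unfolded protein response element TGACGTGG, read on the opposite strand. CA9 (chr9:35673678-35673977, plus strand), the membrane carbonic anhydrase of hypoxic cells, holds the hypoxia element TACGTG, also on the opposite strand.
HERPUD1: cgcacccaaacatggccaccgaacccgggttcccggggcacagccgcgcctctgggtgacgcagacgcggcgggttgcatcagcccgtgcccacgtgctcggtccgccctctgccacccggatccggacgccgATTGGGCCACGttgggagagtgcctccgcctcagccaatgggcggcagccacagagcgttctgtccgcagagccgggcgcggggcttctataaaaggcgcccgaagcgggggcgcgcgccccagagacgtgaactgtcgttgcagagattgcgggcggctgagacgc
XBP1: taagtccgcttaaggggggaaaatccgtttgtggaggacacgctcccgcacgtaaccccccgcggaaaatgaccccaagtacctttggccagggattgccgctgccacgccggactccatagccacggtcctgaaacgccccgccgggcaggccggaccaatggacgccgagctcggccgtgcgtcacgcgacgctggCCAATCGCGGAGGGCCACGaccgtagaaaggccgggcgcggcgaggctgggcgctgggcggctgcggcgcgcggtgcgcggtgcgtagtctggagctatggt
KDELR3: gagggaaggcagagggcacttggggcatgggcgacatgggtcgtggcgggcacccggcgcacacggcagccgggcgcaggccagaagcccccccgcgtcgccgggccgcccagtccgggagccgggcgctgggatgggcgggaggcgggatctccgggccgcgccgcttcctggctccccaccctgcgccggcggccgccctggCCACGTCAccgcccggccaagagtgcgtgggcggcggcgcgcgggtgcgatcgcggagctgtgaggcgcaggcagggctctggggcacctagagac
CA9: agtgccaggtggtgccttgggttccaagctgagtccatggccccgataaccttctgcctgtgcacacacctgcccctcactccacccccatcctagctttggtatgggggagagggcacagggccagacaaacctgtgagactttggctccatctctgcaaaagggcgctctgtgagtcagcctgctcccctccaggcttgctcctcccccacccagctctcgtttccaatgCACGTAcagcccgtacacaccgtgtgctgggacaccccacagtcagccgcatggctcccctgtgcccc

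The ER stress element was found in 8 of 29 matched promoters of the ER folding list and in 0.0916% of all 27305 genes with a promoter in the table, and element II in 3 of 29 and 0.0696%. The letters TGACGTGG were found in 10 of 44 secretory transport promoters and 0.927% of those genes. Holding an element did not go with a larger fold in these lists. The 8 ER folding genes with the ER stress element had a median log2 fold of 0.66 and the 21 without it 0.93, and for secretory transport genes with and without TGACGTGG the medians were 0.62 and 0.68. TACGTG was found in 9 of 27 promoters of the hypoxia list against 3.98% of those genes, and 8 of those 9 genes were higher (median 1.94), as were 12 of 17 without it (median 1.26). The elements overlap in letters: the ER stress element contains CCAAT, element II its reverse complement, and TGACGTGG and TACGTG share ACGTG. A match describes letters in a window and not a bound site.

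Most measured genes of gut epithelium were higher, while the lineage transcription factors HNF4A, HNF4G and CDX2 were not. Of 20 measured intestinal and gastric genes 14 were higher and 1 lower, at a median of 2.94. Another 16 of the 36 listed had under 10 reads in both libraries. KRT20, the keratin of differentiated gut epithelium (chromosome 17, 40875941 to 40885227), stood at 0.633 CPM in adherent cells and 121 CPM in spheroids (log2 fold 7.32, 6.69 to 8.64). ANPEP, the brush border aminopeptidase N, stood at 4.18 and 70.9 CPM (log2 fold 4.05, 3.73 to 4.46). VIL1, the actin-bundling protein villin of microvilli, stood at 2.22 and 37.4 CPM (log2 fold 4.01, 3.59 to 4.61), and MYO1A, the brush border myosin, at 0.759 and 7.64 CPM (log2 fold 3.14, 2.48 to 4.32). CAPN8, a stomach calpain, stood at 2.66 and 53.5 CPM (log2 fold 4.27, 3.88 to 4.81). CDH17, the liver-intestine cadherin, had 597 and 7661 reads and DPP4, a brush border peptidase, 17 and 287 reads. Against these, HNF4A was nearly equal at 30.1 and 29.7 CPM (log2 fold -0.02, -0.20 to 0.17), HNF4G had 65 and 61 reads, CDX2 10 and 7 reads and CDX1 none. The digestive enzymes SI, MEP1A and PGC had 0 reads in both libraries, so the pattern did not extend to every gut gene.

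Several liver-type plasma proteins were higher, but fibrinogen was not. Of 25 measured, 12 were higher and 1 lower, at a median of 0.77. ALB, serum albumin (chromosome 4, 73397114 to 73421412), stood at 0.570 CPM in adherent cells and 59.8 CPM in spheroids (log2 fold 6.44, 5.78 to 7.85). CP, the copper-carrying ferroxidase ceruloplasmin, stood at 42.5 and 611 CPM (log2 fold 3.84, 3.73 to 3.96). SERPINA1, the elastase inhibitor alpha-1-antitrypsin, stood at 1.01 and 19.5 CPM (log2 fold 4.11, 3.54 to 5.09). HP, haptoglobin, had 1 adherent and 79 spheroid reads (log2 fold 4.71, 3.71 to 11.55). Coagulation factor V, F5, had 63 and 593 reads. The 3 fibrinogen chains, which are made as 1 protein, did not move together in the same way: FGB was lower at 82.5 and 29.95 CPM (log2 fold -1.46, -1.61 to -1.31), while FGA and FGG lay at -0.37 and 0.10 and were not called. Apolipoproteins APOB, APOA2 and APOC3 had 0 reads in both libraries.

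**Figure D2:**
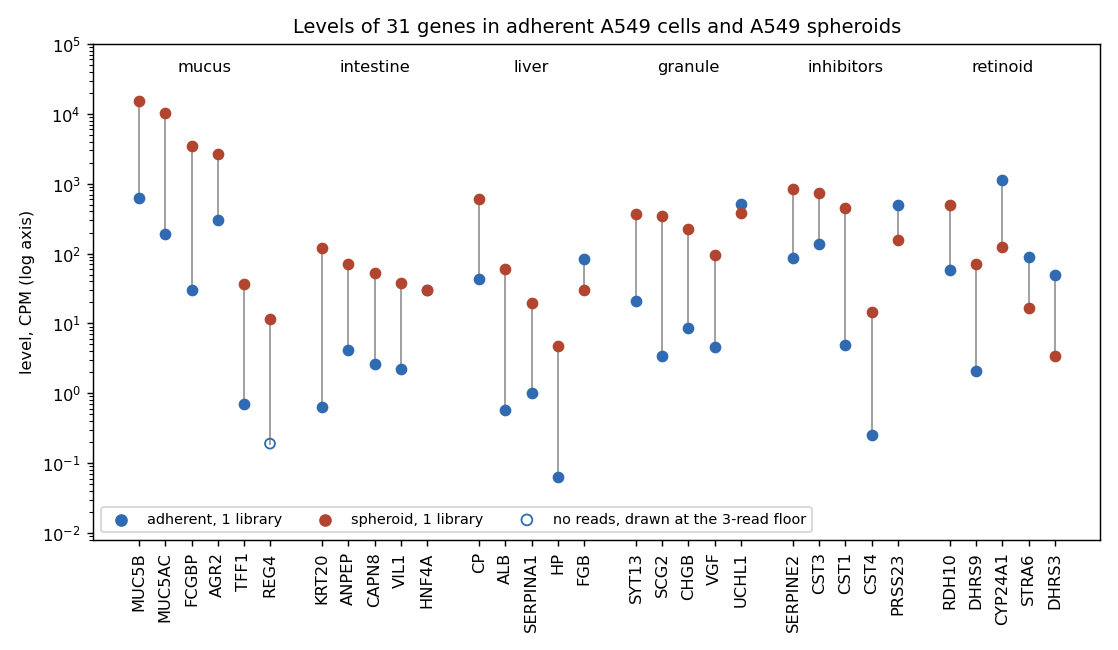
Level in CPM (vertical log axis) of named genes in adherent A549 cells (blue) and A549 spheroids (red), 1 library each, joined by a line. An open circle marks a gene with no reads, drawn at the level of 3 reads. Mucus, intestinal and most liver and granule genes are higher in spheroids, HNF4A is level, and FGB, PRSS23, CYP24A1, STRA6 and DHRS3 are lower.

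Genes for peptide secretion granules leaned higher. In the neuroendocrine list 10 of 19 measured members were higher and none was lower, at a median of 1.13. SCG2, a granin packed into dense-core granules (chromosome 2, 223596940 to 223602503), stood at 3.42 CPM in adherent cells and 346 CPM in spheroids (log2 fold 6.61, 6.27 to 7.07). Another granin, CHGB, stood at 8.61 and 224 CPM (log2 fold 4.68, 4.45 to 4.96), and VGF, a precursor of several peptides, at 4.62 and 95.9 CPM (log2 fold 4.34, 4.04 to 4.73). SYT13, an atypical synaptotagmin, stood at 21.1 and 373 CPM (log2 fold 4.14, 3.99 to 4.31). NTS, the gut peptide neurotensin, was abundant in both, with 8472 and 43893 reads, and NTSR1, its receptor, had 2 and 237 reads (log2 fold 5.85, 4.95 to 9.87). CPE, the carboxypeptidase that trims peptide hormones, had 108 and 836 reads. The markers that define neuroendocrine cells were at or near 0: INSM1 and NEUROD1 had no reads and CHGA had 7 and 2 reads. UCHL1, an abundant deubiquitinase often used as a neuroendocrine marker, was not called at 505 and 380.2 CPM (log2 fold -0.41, -0.46 to -0.36).

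Genes of lung lineage were mixed. In the lung epithelium and airway list 3 of 13 measured were higher and 1 lower. CEACAM6, a surface glycoprotein of the carcinoembryonic antigen family, stood at 212 CPM in adherent cells and 2316 CPM in spheroids (log2 fold 3.45, 3.40 to 3.50), and its relative CEACAM1 at 8.73 and 106 CPM (log2 fold 3.58, 3.35 to 3.86). CEACAM5 had a like fold (3.57), but only 28.4% of its reads were unique to it. TP63, the basal cell transcription factor, had 120 and 440 reads (log2 fold 1.78, 1.51 to 2.10). CAV1, caveolin, a protein of membrane pits and of alveolar type 1 cells, was lower at 362 and 133 CPM (log2 fold -1.44, -1.52 to -1.37). Transcription factors of endoderm and patterning were mixed (14 higher and 8 lower of 49). Higher members included SOX9, of progenitors and secretory duct cells, with 502 and 2053 reads (log2 fold 1.95, 1.82 to 2.10). Lower members included GATA2 (131 and 30 reads, log2 fold -2.13, -2.82 to -1.62), MEIS2 (234 and 75 reads, log2 fold -1.69, -2.11 to -1.33) and TBX3 (450 and 168 reads, log2 fold -1.48, -1.76 to -1.24).

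Transport of ions, water and small solutes differed broadly. Ion channels had 20 of 50 higher and 4 lower (median 0.56), water, bicarbonate and proton transport 9 of 29 higher and 1 lower (median 0.46), and the whole family of solute carriers 54 of 250 higher and 18 lower (median 0.30). KCNE4, a modulatory subunit of voltage-gated potassium channels, stood at 3.23 CPM in adherent cells and 205 CPM in spheroids (log2 fold 5.94, 5.59 to 6.42). GJB1, a gap junction connexin of liver, stood at 0.316 and 10.6 CPM (log2 fold 4.62, 3.82 to 6.71). The sensory cation channels TRPA1 and TRPM8 had 64 and 515 reads (log2 fold 2.90, 2.56 to 3.33) and 12 and 160 reads (log2 fold 3.47, 2.82 to 4.65). SLC26A9, an anion channel of airway and stomach surface, had 12 and 152 reads (log2 fold 3.39, 2.74 to 4.57), and AQP3, a water and glycerol channel, stood at 32.0 and 283 CPM (log2 fold 3.14, 3.01 to 3.28). CA9 stood at 3.99 and 52.4 CPM (log2 fold 3.68, 3.35 to 4.11). On the lower side SCNN1A, the alpha subunit of the epithelial sodium channel, stood at 24.9 and 5.71 CPM (log2 fold -2.10, -2.46 to -1.795).

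Amino acid carriers differed in both directions. SLC7A5, the exchanger that brings in large neutral amino acids, was among the 10 largest losses in CPM, at 1704 CPM in adherent cells and 262 CPM in spheroids (log2 fold -2.70, -2.75 to -2.66), and SLC3A2, the heavy chain it pairs with, stood at 626 and 185 CPM (log2 fold -1.76, -1.82 to -1.70). The glutamate carriers SLC1A1 and SLC1A2 were higher, with 83 and 620 reads (log2 fold 2.80, 2.50 to 3.18) and 4 and 119 reads (log2 fold 4.28, 3.43 to 6.72), and so was SLC6A14, a broad carrier of neutral and cationic amino acids, with 32 and 291 reads (log2 fold 3.04, 2.58 to 3.69). SLC7A11, the cystine importer that shares the SLC3A2 heavy chain, was not called at 554 and 435 CPM (log2 fold -0.35, -0.39 to -0.30). Over the list 9 of 25 were higher and 5 lower (median -0.02). Of 32 measured ABC transporters 6 were higher and 2 lower. ABCG2, an exporter often used to mark side populations of stem-like cells, was lower at 83.2 and 10.4 CPM (log2 fold -2.98, -3.24 to -2.77).

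Complement, coagulation and protease inhibitor genes leaned higher. Of 42 measured complement and coagulation genes 21 were higher and 5 lower (median 1.05), and of 26 protease inhibitors and kallikreins 13 and 2 (median 0.96). SERPINE2, a thrombin and plasminogen activator inhibitor, stood at 86.4 CPM in adherent cells and 843 CPM in spheroids (log2 fold 3.28, 3.21 to 3.37). C4BPA, a chain of the inhibitor of complement C4b, stood at 7.405 and 77.7 CPM (log2 fold 3.37, 3.12 to 3.68), while complement C3 was not called at 417 and 332 CPM (log2 fold -0.33, -0.38 to -0.28). Salivary-type cystatins, which inhibit cysteine proteases, had some of the largest folds: CST1 stood at 4.94 and 445 CPM (log2 fold 6.46, 6.17 to 6.84) and CST4 had 4 and 245 reads (log2 fold 5.31, 4.49 to 7.75). Of the reads of CST1 96.8% and of CST4 96.8% were unique to the gene. CST3, the cystatin of most tissues, stood at 139 and 744 CPM (log2 fold 2.42, 2.36 to 2.49). PRSS23, a secreted serine protease, was lower at 492 and 159 CPM (log2 fold -1.63, -1.70 to -1.57), and so was TFPI2, an inhibitor of tissue factor and plasmin, at 405 and 141 CPM (log2 fold -1.52, -1.59 to -1.46). Of the lysosomal proteases, the cysteine protease CTSL, of the class that cystatins inhibit, was higher at 429 and 1332 CPM (log2 fold 1.63, 1.59 to 1.67), but the cysteine protease CTSB lay at -0.39. The autophagy and lysosome list as a whole had 6 of 46 higher and 1 lower (median 0.45).

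Cytokines and alarmins differed in both directions. In the chemokine, cytokine and NF-kB list 12 of 44 were higher and 5 lower (median 0.24). Higher members included 3 of the interleukin-1 family. IL33, a nuclear alarmin of epithelium, stood at 1.65 CPM in adherent cells and 95.3 CPM in spheroids (log2 fold 5.75, 5.30 to 6.47), and IL1B and IL1A had 14 and 174 reads (log2 fold 3.39, 2.78 to 4.46) and 5 and 70 reads (log2 fold 3.30, 2.44 to 5.401). TNFSF15, a tumour necrosis factor family ligand, stood at 24.3 and 442 CPM (log2 fold 4.18, 4.04 to 4.34). CCL2, the monocyte chemoattractant, was lower at 57.7 and 2.17 CPM (log2 fold -4.66, -5.26 to -4.25), as was CSF1, the macrophage growth factor, at 51.7 and 15.6 CPM (log2 fold -1.72, -1.93 to -1.52). Of the neutrophil chemokines, CXCL5 and CXCL1 were not called (0.88 and 0.37). S100 genes, small calcium-binding proteins of which some act as alarmins, were higher in 9 of 15 and lower in none (median 1.39). S100A9 stood at 4.87 and 152 CPM (log2 fold 4.93, 4.64 to 5.31) and S100P at 16.6 and 219 CPM (log2 fold 3.71, 3.54 to 3.91), while S100A10 and S100A11, abundant in both cultures, lay at 0.03 and -0.04. PTGS2, the inducible cyclooxygenase, stood at 182 and 1673 CPM (log2 fold 3.20, 3.14 to 3.25), and HPGD, which breaks prostaglandins down, at 139 and 652 CPM (log2 fold 2.22, 2.16 to 2.29).

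Antigen presentation and interferon genes showed no common direction. Class I genes were higher in none and lower in 5 of 26 measured. The light chain B2M lay at 0.88, just under the 2-fold limit, whereas the lower genes included those of peptide supply: PSMB9 of the immunoproteasome (128 and 19 reads, log2 fold -2.70, -3.60 to -2.12) and the trimming peptidase ERAP2 (94 and 38 reads, log2 fold -1.33, -1.96 to -0.82). IRF1, a transcription factor of the interferon response, was lower too (301 and 118 reads, log2 fold -1.41, -1.74 to -1.11). Interferon-stimulated genes had 9 of 39 higher and 6 lower (median 0.33). IFITM1, which hinders virus entry, had 6 and 270 reads (log2 fold 5.03, 4.28 to 6.88), of which 0 and 21 were unique to the gene. OAS1, a sensor of double-stranded RNA, had 754 and 3134 reads (log2 fold 1.98, 1.87 to 2.10), while OAS3, its relative, was lower (1404 and 598 reads, log2 fold -1.30, -1.45 to -1.17). HLA-DMB, a peptide exchange factor of class II, had 195 and 1242 reads (log2 fold 2.59, 2.38 to 2.82).

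**Figure D3:**
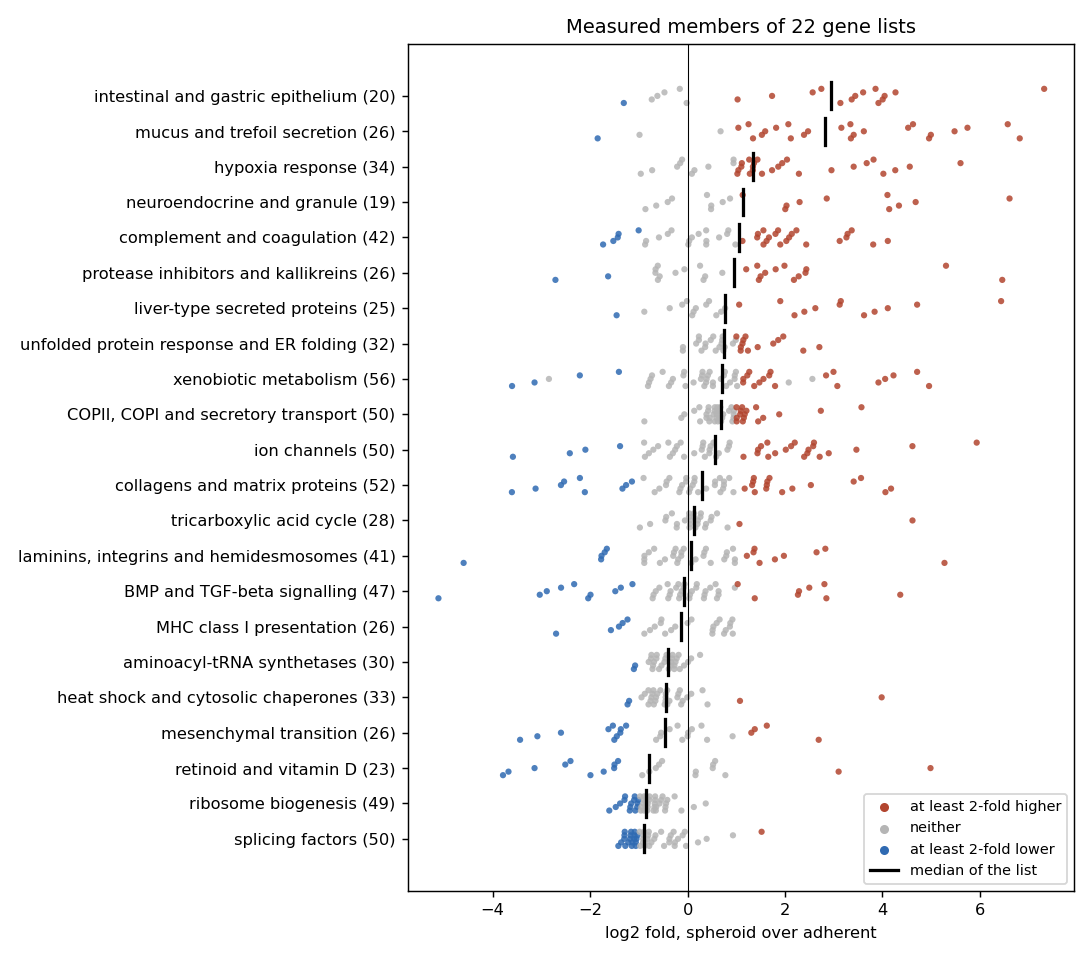
Log2 fold of spheroid over adherent (horizontal axis) for the measured members of selected gene lists, ordered by their median (black bar), with the number of measured members in brackets. Each point is 1 gene. Mucus and intestinal lists reach medians of 2.82 and 2.94, ribosome biogenesis and splicing lists -0.85 and -0.89, and matrix, integrin and TGF-beta lists spread to both sides of 0.

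Matrix and adhesion genes were exchanged more than raised or lowered. Collagens and matrix proteins had 16 of 52 higher and 9 lower (median 0.30), and laminins, integrins and hemidesmosome genes 9 of 41 higher and 5 lower. The basement membrane collagens COL4A1 and COL4A2 were lower, at 74.2 CPM in adherent cells and 12.7 CPM in spheroids (log2 fold -2.54, -2.77 to -2.33) and 158 and 34.0 CPM (log2 fold -2.21, -2.35 to -2.08). COL5A1, a chain of a fibrillar collagen, was lower at 144 and 23.6 CPM (log2 fold -2.60, -2.76 to -2.45), yet COL5A2 of the same collagen was level (0.05). FBN2, a fibrillin of elastic microfibrils, stood at 277 and 31.7 CPM (log2 fold -3.12, -3.26 to -2.995), and EFEMP1, a fibulin, at 84.2 and 6.80 CPM (log2 fold -3.61, -3.92 to -3.35). COL17A1, the transmembrane collagen of hemidesmosomes, was higher at 4.11 and 70.6 CPM (log2 fold 4.06, 3.74 to 4.48), together with ITGB4, the integrin chain of the same structure, at 125 and 889 CPM (log2 fold 2.83, 2.76 to 2.90). LAMA3, a chain of the laminin that hemidesmosomes bind, was lower (1000 and 332 reads, log2 fold -1.66, -1.85 to -1.48). FN1, fibronectin, stood at 962 and 2503 CPM (log2 fold 1.38, 1.35 to 1.41). ITGA10, a collagen-binding integrin chain, had 21 and 932 reads (log2 fold 5.27, 4.78 to 6.10), and ITGB1, the common beta chain, was not called at -0.21. Of the fibroblast and endothelial markers, LUM, a matrix proteoglycan, had 24 and 320 reads and PECAM1 2 and 129 reads. In contrast, THY1 had 87 and 9 reads and VWF 1 and 1 reads. Both libraries are labelled as A549 cells with no other cell type named, and the markers were not used to test for one.

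Secreted proteases of the matrix were split as well, with 9 of 33 higher and 8 lower. The collagenase MMP1 had 3 and 219 reads (log2 fold 5.41, 4.55 to 8.41) and the stromelysin MMP10 5 and 107 reads (log2 fold 3.90, 3.08 to 5.998). MMP7, the epithelial matrilysin, was lower at 60.2 CPM in adherent cells and 11.2 CPM in spheroids (log2 fold -2.41, -2.65 to -2.19), and the membrane-bound MMP24 at 114 and 13.2 CPM (log2 fold -3.10, -3.32 to -2.91). TIMP1, which inhibits this class of protease, stood at 86.0 and 345 CPM (log2 fold 2.004, 1.92 to 2.09). Among genes tied to mesenchymal transition 10 of 26 were lower and 4 higher (median -0.46). With at least 100 reads in 1 library the median was -0.11, and the summed level of the list was 4805 CPM in adherent cells and 6420 CPM in spheroids. CDH2, N-cadherin, was lower (1194 and 481 reads, log2 fold -1.38, -1.54 to -1.23), CDH1, E-cadherin, was not called (-0.22), and VIM, vimentin, lay at 0.92.

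Keratins changed in composition. Of the simple keratins abundant in adherent cells, KRT18 stood at 3439.6 CPM in adherent cells and 1639 CPM in spheroids (log2 fold -1.07, -1.09 to -1.05) and KRT7 at 2180.1 and 619 CPM (log2 fold -1.82, -1.85 to -1.78), while KRT8 was not called at 5212 and 3161 CPM (log2 fold -0.72, -0.74 to -0.71). KRT81, a hair-type keratin abundant in this line, stood at 2972 and 1027 CPM (log2 fold -1.53, -1.56 to -1.51). KRT4, a mucosal keratin, had 323 and 2 reads (log2 fold -6.40, -10.46 to -5.54). Higher were KRT19, at 83.0 and 322 CPM (log2 fold 1.95, 1.87 to 2.04), KRT15, at 3.29 and 51.1 CPM (log2 fold 3.91, 3.55 to 4.39), and KRT20. The summed level of the keratin genes was 14351 CPM in adherent cells and 7151 CPM in spheroids, with 6 of 16 measured keratins higher and 7 lower. Lower cytoskeletal genes included ACTB, beta-actin, at 4159.6 and 2046 CPM (log2 fold -1.02, -1.04 to -1.005) and TUBA1B, an alpha-tubulin, at 1601 and 284 CPM (log2 fold -2.50, -2.54 to -2.45). Among tight junction claudins CLDN4 stood at 3.67 and 27.7 CPM (log2 fold 2.87, 2.52 to 3.33) and CLDN2 at 73.3 and 295 CPM (log2 fold 2.01, 1.92 to 2.10), while CLDN1 was lower (1821 and 892 reads, log2 fold -1.10, -1.22 to -0.99). The junction and polarity list as a whole was even, with 8 higher and 8 lower of 50.

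Secreted growth factor modulators showed wide folds in both directions. In the list of growth factors and receptors 16 of 49 were higher and 8 lower (median 0.30). Insulin-like growth factor binding proteins led, with IGFBP1 at 10.5 CPM in adherent cells and 338 CPM in spheroids (log2 fold 4.99, 4.78 to 5.24), IGFBP5 at 11.1 and 233 CPM (log2 fold 4.38, 4.18 to 4.62) and IGFBP3 at 246 and 1983 CPM (log2 fold 3.01, 2.96 to 3.06). Not every binding protein followed, since IGFBP7 was lower (850 and 308 reads, log2 fold -1.53, -1.73 to -1.35) and IGFBP4 level (0.08). The growth factor IGF2 had 59 and 944 reads (log2 fold 3.88, 3.55 to 4.33), of which 12 and 264 were unique to it. FGFR1, a fibroblast growth factor receptor, was lower (1617 and 556 reads, log2 fold -1.61, -1.76 to -1.47).

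In the BMP and TGF-beta list 8 of 47 were higher and 10 lower. The BMP targets ID3 and ID4 were lower. ID3, an inhibitor of helix-loop-helix factors, stood at 246 CPM in adherent cells and 33.1 CPM in spheroids (log2 fold -2.89, -3.03 to -2.77), and ID4 had 164 and 3 reads (log2 fold -5.11, -8.14 to -4.27). FST, follistatin, which traps activins, stood at 3.80 and 80.7 CPM (log2 fold 4.37, 4.04 to 4.81), INHBB, an activin chain, at 78.3 and 9.44 CPM (log2 fold -3.04, -3.30 to -2.81), and the ligand BMP6 at 10.4 and 76.0 CPM (log2 fold 2.85, 2.63 to 3.11). WNT genes had 10 of 40 higher and 4 lower. The ligand WNT7B was lower at 231 and 46.8 CPM (log2 fold -2.30, -2.42 to -2.19) and WNT4 higher (17 and 187 reads, log2 fold 3.25, 2.67 to 4.20). SFRP1, a secreted WNT antagonist, stood at 41.5 and 178 CPM (log2 fold 2.10, 1.98 to 2.22), and AXIN2, a common target of the pathway, was lower (233 and 103 reads, log2 fold -1.23, -1.60 to -0.91). Notch genes were mostly not called (2 higher and 3 lower of 28), although the Notch target HEY1 had 3 and 187 reads (log2 fold 5.19, 4.32 to 8.18) and the target NRARP, which dampens Notch, was lower (52 and 13 reads, log2 fold -1.92, -3.07 to -1.18).

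Immediate early genes and the feedback genes of MAP kinase signalling gave 12 of 38 higher and 6 lower (median 0.39). DUSP6 and DUSP4, phosphatases of the ERK kinases, stood at 16.1 CPM in adherent cells and 187 CPM in spheroids (log2 fold 3.53, 3.35 to 3.73) and 389 and 1211 CPM (log2 fold 1.64, 1.60 to 1.68). ERRFI1, an inhibitor of the EGF receptor, stood at 113 and 883 CPM (log2 fold 2.97, 2.90 to 3.04). Transcription factors were split. MYC and FOSL1 were lower, at 92.5 and 31.1 CPM (log2 fold -1.57, -1.72 to -1.43) and 22.4 and 7.70 CPM (log2 fold -1.53, -1.84 to -1.25). FOS and JUNB lay above 0 but under 2-fold, with log2 folds of 0.62 and 0.84 from unique reads. TXNIP, a glucose-responsive arrestin that binds thioredoxin, stood at 1.08 and 80.3 CPM (log2 fold 6.07, 5.54 to 7.01), CDKN1C, a cyclin-dependent kinase inhibitor, had 6 and 94 reads (log2 fold 3.52, 2.72 to 5.38) and CITED2, a transcriptional coregulator, 224 and 1954 reads (log2 fold 3.04, 2.85 to 3.26). The quiescence and arrest list as a whole had 15 of 37 higher and 7 lower (median 0.73), and CDKN1A, the p53 target p21, was not called (0.71). Targets of p53 otherwise leaned lower (1 higher and 6 lower of 28, median -0.44).

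Retinoid and vitamin D genes leaned lower. Of 23 measured 10 were lower and 2 higher (median -0.79). CYP24A1, the enzyme that inactivates vitamin D, stood at 1112 CPM in adherent cells and 126 CPM in spheroids (log2 fold -3.14, -3.21 to -3.08). DHRS3, which reduces retinaldehyde, stood at 49.0 and 3.43 CPM (log2 fold -3.79, -4.25 to -3.45), STRA6, the retinol uptake receptor, at 89.0 and 16.7 CPM (log2 fold -2.40, -2.60 to -2.23) and the retinoic acid receptor RARB at 18.6 and 6.50 CPM (log2 fold -1.501, -1.85 to -1.20). The retinol dehydrogenases RDH10 and DHRS9, which make retinaldehyde, were higher, at 58.2 and 499.96 CPM (log2 fold 3.10, 3.01 to 3.20) and 2.09 and 70.0 CPM (log2 fold 4.99, 4.57 to 5.61). Of the dehydrogenases of the next step, ALDH1A3 was lower at 53.04 and 9.20 CPM (log2 fold -2.51, -2.79 to -2.28) and ALDH1A1 was not called at 10692 and 7119 CPM (log2 fold -0.59, -0.60 to -0.58). By difference in CPM ALDH1A1 was the largest loss of all kept genes.

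Enzymes of drug and hormone conjugation leaned higher. In the xenobiotic list 18 of 56 were higher and 4 lower (median 0.71), and of 14 measured UDP-glucuronosyltransferases, which attach glucuronic acid, 11 were higher and none lower. Another 8 of the 22 in that family had under 10 reads in both libraries. UGT2B4 (1 and 79 reads) and UGT2B10 (3 and 77 reads) were among those measured only through the spheroid library, so 11 of 14 does not describe the whole family. UGT2B11 and UGT2B15 had 10 and 178 reads (log2 fold 3.84, 3.17 to 5.17) and 11 and 117 reads (log2 fold 3.13, 2.45 to 4.38), most of them unique to each gene. The UGT1A genes share most exons and had almost no unique reads, so they cannot be told apart and are not separate values in that count. GSTA1, a glutathione transferase of liver, had 4 and 115 reads (log2 fold 4.23, 3.38 to 6.67) and FMO5, a flavin monooxygenase, 22 and 417 reads (log2 fold 4.06, 3.55 to 4.86). CYP3A5, a drug-oxidizing P450, stood at 5.57 CPM in adherent cells and 40.7 CPM in spheroids (log2 fold 2.84, 2.55 to 3.21). ALDH3A1 and AKR1B10, which detoxify aldehydes, were among the largest gains in CPM, at 1806 and 4154 CPM (log2 fold 1.20, 1.18 to 1.22) and 3036 and 7838 CPM (log2 fold 1.37, 1.35 to 1.38). TXNRD1, thioredoxin reductase, and HMOX1, heme oxygenase, were lower, at 2225 and 752 CPM (log2 fold -1.56, -1.59 to -1.53) and 165 and 49.3 CPM (log2 fold -1.74, -1.86 to -1.63), and AOX1, aldehyde oxidase, had 426 and 35 reads (log2 fold -3.60, -4.22 to -3.18).

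In energy metabolism, called genes were more frequent in glycolysis than in the mitochondrial lists. In the glycolysis list 12 of 30 were higher and 1 lower (median 0.48). Of 28 genes in the tricarboxylic acid cycle list 2 were higher, 1 of them the gluconeogenic PCK1, and of 72 nuclear respiratory chain subunits 1 was. Summed levels differed little, at 17946 and 21487 CPM for glycolysis and 2892 and 3216 CPM for the tricarboxylic acid cycle. The hypoxia list, which also holds genes outside energy metabolism such as CA9, had 24 of 34 higher and none lower (median 1.34). The isoforms HK2, the inducible hexokinase, and ALDOC, the brain-type aldolase, had the largest folds of glycolysis, at 1.96 CPM in adherent cells and 33.7 CPM in spheroids (log2 fold 4.02, 3.58 to 4.67) and 2.59 and 37.3 CPM (log2 fold 3.78, 3.39 to 4.34). The abundant GAPDH and PKM lay at 0.14 and 0.29, and PFKFB3, a kinase that sets the rate of glycolysis, was lower at 303 and 139 CPM (log2 fold -1.13, -1.20 to -1.06). STC1, a secreted glycoprotein, stood at 29.6 and 1446 CPM (log2 fold 5.603, 5.48 to 5.74). PPP1R3C, which targets a phosphatase to glycogen, and PYGB, a glycogen phosphorylase, stood at 9.43 and 112 CPM (log2 fold 3.55, 3.32 to 3.81) and 238 and 793 CPM (log2 fold 1.74, 1.69 to 1.79). The oxidative pentose phosphate enzyme PGD lay at -0.60. PCK1, the gluconeogenic kinase, had 0 reads in the adherent and 48 in the spheroid library. The iron genes were split: SLC40A1, the iron exporter ferroportin, was higher at 22.7 and 102 CPM (log2 fold 2.16, 2.002 to 2.33) and TFRC, the transferrin receptor, lower at 324 and 158 CPM (log2 fold -1.03, -1.10 to -0.96).

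Genes of splicing and ribosome assembly leaned lower in small steps. Of 49 ribosome biogenesis genes 14 were lower, none higher and only 2 above 0 (median -0.85). Splicing factors had 19 of 50 lower and 1 higher (median -0.89), and DNA repair genes, several of which act in S phase, 23 of 61 lower and 1 higher (median -0.80). NOP56, a core protein of box C/D ribonucleoproteins, stood at 346 CPM in adherent cells and 124 CPM in spheroids (log2 fold -1.47, -1.55 to -1.40), and BOP1, needed for large subunit assembly, at 93.4 and 30.6 CPM (log2 fold -1.61, -1.76 to -1.46). Among splicing factors HNRNPM stood at 230.1 and 85.8 CPM (log2 fold -1.42, -1.51 to -1.33) and PTBP1 at 350.4 and 143 CPM (log2 fold -1.30, -1.37 to -1.23). NOVA1, an RNA-binding protein of neurons, was the exception on the higher side, at 15.7 and 45.2 CPM (log2 fold 1.52, 1.32 to 1.74). Proteins of the finished ribosome did not follow. Of 80 measured cytosolic ribosomal protein genes only RPL39L was called, lower with 319 and 132 reads (log2 fold -1.33, -1.65 to -1.05), and the median of the family was 0.15. EEF1A1, the elongation factor that brings tRNA to the ribosome, lay at 0.63 and was one of the largest gains in CPM. Aminoacyl-tRNA synthetases had a median of -0.41 and proteasome subunits of -0.52, but few were called lower, 2 of 30 (6.67%) and 3 of 37 (8.11%), below the 10.7% of all measured genes.

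**Figure D4:**
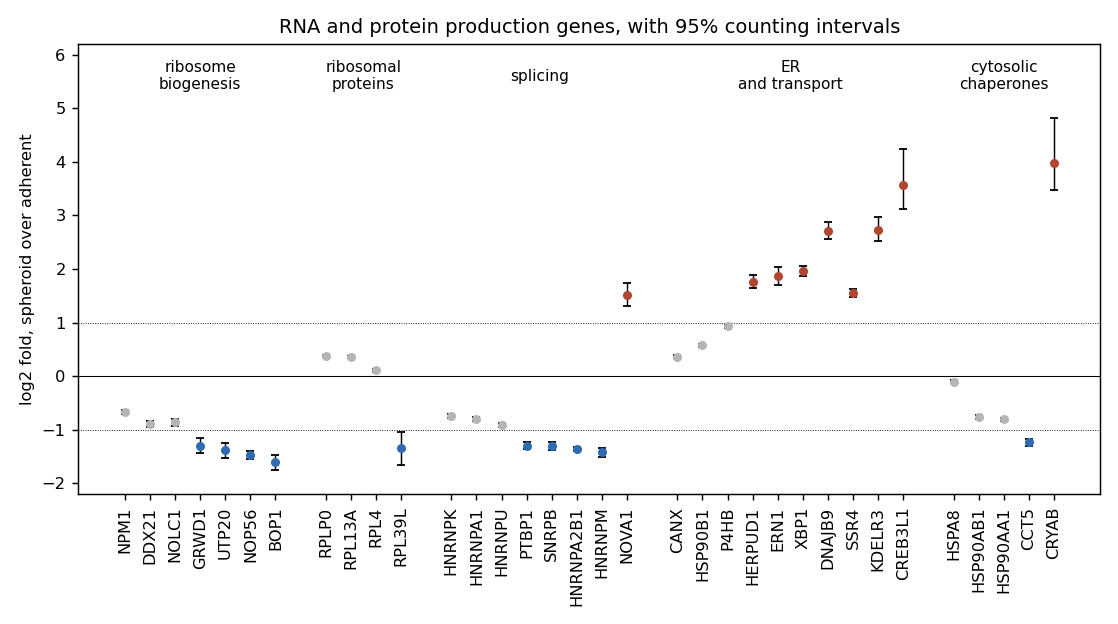
Log2 fold of spheroid over adherent (vertical axis) with its 95% counting interval for genes of ribosome assembly, ribosomal proteins, splicing, ER and transport, and cytosolic chaperones. Dotted lines mark 2-fold. Assembly and splicing genes lie below 0 except NOVA1, ribosomal proteins near 0 except RPL39L, and ER and transport genes above 0.

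Cytosolic chaperones stood apart from those of the ER. Heat shock and cytosolic chaperone genes had a median of -0.45, with 2 higher and 2 lower of 33. HSP90AA1 lay at -0.80, while its ER relative HSP90B1 lay at 0.58. CCT5, a subunit of the chaperonin that folds actin and tubulin, was lower at 423 CPM in adherent cells and 180.0 CPM in spheroids (log2 fold -1.23, -1.30 to -1.17). The small heat shock protein CRYAB was higher, with 21 and 380 reads (log2 fold 3.98, 3.47 to 4.81). Synthesis of nucleotides and one-carbon units was lower in 13 of 36 genes and higher in 2, and its largest fold was in the S phase enzyme RRM2, at 231 and 6.56 CPM (log2 fold -5.11, -5.43 to -4.86). Only 6.28% of RRM2 reads, 227 and 9, were unique to the gene. Chromatin genes had 6 of 63 higher and 11 lower. UHRF1 and EZH2, which maintain DNA and histone methylation in dividing cells, were lower, at 93.7 and 4.33 CPM (log2 fold -4.40, -4.797 to -4.09) and 49.0 and 7.398 CPM (log2 fold -2.71, -3.01 to -2.45). HMGA2, an oncofetal architectural protein, was higher at 21.5 and 107 CPM (log2 fold 2.31, 2.15 to 2.49).

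Noncoding genes differed about as often as protein-coding genes. Of 2281 noncoding genes kept 332 (14.6%) were higher and 223 (9.78%) lower, against 12.5% and 10.3% of protein-coding genes. The sources do not say if reads were counted by strand, so reads of antisense genes and of the genes they overlap cannot be told apart. SSTR5-AS1, antisense to a somatostatin receptor gene, had 4 and 562 reads (log2 fold 6.50, 5.70 to 8.94), and VAC14-AS1 4 and 194 reads (log2 fold 4.97, 4.15 to 7.42). On the lower side TMPO-AS1 had 146 and 13 reads (log2 fold -3.37, -4.51 to -2.74) and DLEU2, the host of a microRNA cluster deleted in leukaemia, 115 and 12 reads (log2 fold -3.13, -4.33 to -2.47). Small nucleolar RNA host genes were lower in 7 of 26 and higher in 2, with GAS5 at 0.90.

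MicroRNA host genes gave 2 higher and 5 lower of 18 measured. The mature microRNAs inside MIR210HG and MIR503HG, the hosts with the highest and lowest folds among the named genes whose symbols mark them as microRNA hosts, are shown (RefSeq, GRCh38.p14), with the seed, bases 2 to 8, in capitals. The reads count the host transcript and not the mature microRNA. MIR210HG stood at 3.61 CPM in adherent cells and 36.6 CPM in spheroids (log2 fold 3.30, 2.95 to 3.76) and holds miR-210-3p (chr11:568112-568133, minus strand). MIR503HG stood at 7.78 and 1.74 CPM (log2 fold -2.08, -2.79 to -1.56) and holds miR-503-5p (chrX:134546371-134546393, minus strand). The seeds differ, so these are members of separate families.
hsa-miR-210-3p: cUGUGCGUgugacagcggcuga
hsa-miR-503-5p: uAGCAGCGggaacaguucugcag

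Reads in introns, which come largely from unspliced RNA, were used as a second count from the same libraries. Of 2136 higher genes 1035 had at least 30 intronic reads in 1 library, and in 946 of them (91.4%) the intronic fold was also above 0. Of 1715 lower genes 1029 had as many, and 1023 (99.4%) were below 0 in introns. The median exonic and intronic log2 folds were 1.51 and 0.98 for the higher genes, and -1.61 and -1.81 for the lower genes. Over all 9807 genes with enough intronic reads the median intronic log2 fold was -0.37. A limit of 0 is therefore easier to meet for lower genes than for higher genes, and the shares of 91.4% and 99.4% are not comparable. Across those genes the folds had a Pearson correlation of 0.865 and a Spearman correlation of 0.747; genes are not independent replicates and both folds share the libraries. FCGBP had 25 and 790 intronic reads and SLC14A1 0 and 145.

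**Figure D5:**
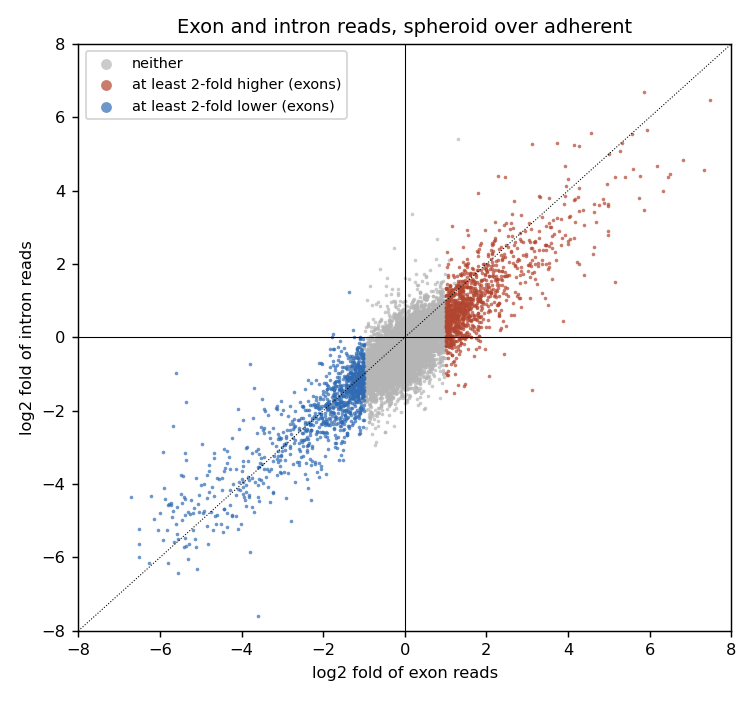
Log2 fold of exonic reads (horizontal axis) against that of intronic reads (vertical axis) for genes with at least 30 intronic reads in 1 library, with 1 point per gene and a dotted line of equality. Higher and lower genes by exonic reads lie mostly to the upper right and the lower left of the centre.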

How the data were processed

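The authors deposited 1 table per library with raw counts of reads per gene, as exonic, unique exonic, intronic and total gene reads, and TPM values, per the file headers. Reads came from a stranded messenger RNA kit, per the labels' protocols, and were mapped to hg38, per the submitters' processing notes. The aligner, the counter and whether counting used strand were not given in the labels or headers used here. Exonic counts of 43622 genes were filtered with filterByExpr over all 4 libraries and scaled by TMM in edgeR 4.0.16 (R 4.3.3). The 2 A549 libraries were compared as log2 fold with a prior count of 2. The 95% interval is the exact Clopper-Pearson interval of the count ratio, and a difference was called at 2-fold with an interval excluding no change. Reads are not identified by molecule, so intervals and floors cover counting error only. A fold against 0 reads used a floor of 3 reads per library. Python 3.11.15 and pandas 2.3.3 made the tables.

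Groups came from the labels. The members and lists (66 lists, 35 symbol families) were chosen with earlier results of these data known, so no list is independent evidence of its direction. Genes were named by rule: the 15 highest and lowest folds with at least 500 reads, leaving out reference S phase and mitosis genes, the 10 largest gains and losses in CPM, up to 4 called members each way per list with at least 50 reads and 3 members not called with the most reads, the 5 highest and lowest noncoding genes with at least 100 reads, and the 5 genes absent in 1 library with the most reads in the other, each way. MUC2, MUC6, MUC13, MUC16, TFF2, TFF3, FOXA3, HSPA5, CALR, SEL1L, OS9, DERL2, CDH17, DPP4, CDX1, CDX2, F5, NTS, CPE, CHGA, PCK1, CLDN1 and VWF, and genes with 0 reads in both libraries, were added after their values were seen. Some items are not reported here. Promoters and microRNAs are from RefSeq. 12 alternatives of scaling, filter, prior and read type were tried, with DESeq2 1.42.0 used for size factors only.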

Additional observations from a re-analysis of the deposited data

How the results depend on the processing

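With at least 100 reads required in 1 of the 2 libraries, 1221 genes were higher and 1123 lower, against 2136 and 1715, since fewer genes were considered. Under the other 11 alternatives the counts stayed within 1.5 times, at 1744 to 2295 higher and 1431 to 1961 lower, and the A549 libraries alone gave 2066 and 1633. Scaling by library size alone moved the median of all genes to -0.09 and the share of called genes that were higher from 55.5% to 48.7%. Among members with at least 100 reads, of which there were fewer, the median changed sign for serpins (0.31 to -0.014), microRNA host genes (-0.21 to 0.52), HOX genes (-0.20 to 0.12) and GPR and ADGR receptors (-0.0020 to 0.14). Under library size alone it changed sign for the prostaglandin, laminin and integrin, nuclear receptor, respiratory chain and TRIM lists, under DESeq2 size factors and under unique reads for GPR and ADGR receptors and for ARHGAP and ARHGEF genes, and under unique reads for the laminin and integrin list too, all of them lists with a median near 0. The mean had the other sign from the median for amino acid transport, axon guidance, ABC transporters, keratins, DNAJ genes and GPR and ADGR receptors. Of the list medians 4 moved by more than 0.3 under unique reads and 23 as means. With at least 100 reads 13 moved, and 1 more was counted as reversed. The median of the keratin family went from -0.05 to -0.90 with at least 100 reads. Of 794 named genes, 262 moved outside their counting interval with library size alone, 71 with a prior count of 10 and 34 with unique reads, and no called gene among them changed sign under these 3 alternatives. Of the reads of ALDOC, UHRF1 and EEF1A1 41.1%, 43.0% and 40.8% were unique to the gene, and these alone gave log2 folds of 3.86, -4.50 and 0.61. No paired analysis was possible because each culture has 1 library. Depth limits what can be said of genes near the floor of 3 reads, 0.190 CPM in adherent cells and 0.180 CPM in spheroids.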

Other observations

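Several gene groups outside the lists above also differed between spheroids and adherent cells. Circadian clock genes had 10 of 23 measured members higher and 1 lower (median log2 fold 0.16). The clock repressor CRY2 had 64 and 193 reads (log2 fold 1.49, 1.10 to 1.95). Nuclear receptors in general were mixed (8 higher and 4 lower of 34), with NR4A2, an immediate early receptor, at 7.97 CPM in adherent cells and 66.6 CPM in spheroids (log2 fold 3.04, 2.79 to 3.34) and its relative NR4A1 lower at 151 and 60.9 CPM (log2 fold -1.31, -1.42 to -1.20). NR1H4, the bile acid receptor, had 48 and 231 reads (log2 fold 2.15, 1.74 to 2.67). Of 19 glucocorticoid-responsive genes 8 were higher and 6 lower. FKBP5 and KLF9, induced by the receptor in many tissues, were lower (484 and 202 reads and 130 and 52 reads), while ANGPTL4, also a hypoxia gene, was higher at 10.8 and 209 CPM (log2 fold 4.26, 4.06 to 4.51). Receptors and regulators of G protein signalling were split 12 to 13 among 55 measured, and OXTR, the oxytocin receptor, was lower with 118 and 22 reads (log2 fold -2.39, -3.22 to -1.83). Axon guidance genes had 12 higher and 6 lower of 39. NRP2, a coreceptor of semaphorins, was lower at 213 and 43.8 CPM (log2 fold -2.28, -2.40 to -2.17), and SEMA4G, a membrane semaphorin, higher at 42.8 and 155 CPM (log2 fold 1.86, 1.74 to 1.98).

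Genes of the cytoskeleton and of chromatin gave further contrasts within families. Motor and tubulin genes had 7 higher and 10 lower of 43. STMN1, stathmin, which destabilises microtubules, stood at 164 CPM in adherent cells and 24.9 CPM in spheroids (log2 fold -2.71, -2.87 to -2.57), and MAP2, which stabilises them, had 292 and 22 reads (log2 fold -3.69, -4.50 to -3.18). MYO1D, a membrane-linked myosin, was higher at 12.8 and 113 CPM (log2 fold 3.13, 2.93 to 3.36). Intraflagellar transport and cilia genes had 1 higher and 5 lower of 49. The lower share of 10.2% was near the 10.7% of all measured genes. IFT81 was among the lower with 1267 and 540 reads (log2 fold -1.30, -1.45 to -1.16). Histone genes were mixed. The variants H2AFX and H2AFZ were lower, at 101 and 19.0 CPM (log2 fold -2.41, -2.59 to -2.24) and 295 and 108 CPM (log2 fold -1.44, -1.53 to -1.37). The cluster genes HIST1H4H and HIST1H2AC were higher with 41 and 257 reads (log2 fold 2.52, 2.09 to 3.09) and 286 and 830 reads (log2 fold 1.46, 1.27 to 1.66). Of 71 cluster histone genes 48 had under 10 reads in both libraries, and of the 23 measured 4 were higher and 2 lower. The libraries came from a messenger RNA kit, and how fully it captures cluster histone transcripts was not tested. Annexins, which bind membranes with calcium, included the higher ANXA13, a gut annexin, at 16.8 and 110.2 CPM (log2 fold 2.71, 2.53 to 2.91) and the lower ANXA3, at 154 and 30.2 CPM (log2 fold -2.34, -2.49 to -2.21). Tetraspanins had 7 higher and 1 lower of 19. Apoptosis regulators were even (4 higher, 4 lower of 42): MCL1 stood at 253 and 563 CPM (log2 fold 1.15, 1.10 to 1.21) and BCL2, also a survival factor, had 72 and 14 reads (log2 fold -2.28, -3.38 to -1.60). Among mitochondrially encoded genes MT-ND6 alone was called, lower at 474 and 167 CPM (log2 fold -1.499, -1.56 to -1.44); it lies on the other strand from the rest of the complex I genes of the mitochondrial genome, and whether counting used strand is not stated.

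Higher genes were more frequent among genes with short exonic length and high GC content. Protein-coding genes were divided into 5 equal groups by exonic length. In the group with the shortest exons 15.4% were higher, against 10.3% in that with the longest, while the share of lower genes ranged from 9.66% to 11.2% over the 5 groups. In 5 groups by GC content the higher share was 9.53% at the lowest and 16.1% at the highest content. Promoters were matched for 1352 of 2136 higher and 1141 of 1715 lower genes. The AP-1 letters TGAGTCA were found, on either strand, in promoters of 9.84% of the matched higher genes, 4.73% of the lower genes and 4.58% of the remaining genes kept, against 6.05% of all 27305 genes with a promoter in the table. The letters CAAAGTCCA, read by HNF4 receptors, were found in 1.18%, 0.0876% and 0.389%, against 0.472% of all. Those shares stand for 16 higher genes, 1 lower gene and 35 remaining genes, so they rest on few matches. CCAAT was found in 39.7%, 47.3% and 42.5%, against 39.7% of all. The hypoxia element TACGTG differed little, at 4.59%, 4.12% and 4.36%, against 3.98% of all. TGACGTGG was found in 2.22%, 0.964% and 1.08%, against 0.927% of all. The ER stress element and element II were rare, in 25 and 19 of all genes. These shares are descriptions of sequence and were not tested.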
